A study of Mus musculus with 6 samples.

Results

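The neuromodulator receptor genes are the receptors for acetylcholine, serotonin, noradrenaline and adrenaline, dopamine and histamine. They were taken by symbol: every gene in the table of unique molecular identifiers (UMIs, single captured RNA molecules) whose symbol starts with Htr, Drd, Adra, Adrb or Hrh followed by a digit, or with Chrm or Chrn. This gave 42 of 20234 genes, and all 42 had at least 1 UMI in the retained cells. They were read in single cells of the CA1 region of the hippocampus of 6 male C57Bl6 mice at postnatal day 28. Placebo mice 1, 3 and 5 had received a single placebo injection and EPO mice 2, 4 and 6 a single injection of 5000 IU/kg recombinant human erythropoietin, and all were killed 6 h later. Placebo mice 1 and 3 and EPO mouse 2 carried the label D1, placebo mouse 5 and EPO mice 4 and 6 the label D2, and what D stands for is not given in the sources used here.

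Neuromodulator receptors set how a neuron responds to axons that reach the hippocampus from the septum, raphe, locus coeruleus, midbrain and hypothalamus. Most are G protein-coupled receptors. Those acting through Gq release calcium from stores, those acting through Gs raise cyclic AMP, and those acting through Gi lower cyclic AMP and open inwardly rectifying potassium channels. The nicotinic receptors (Chrna and Chrnb) and the Htr3 receptors are instead ion channels built of several subunits. In the hippocampus, Chrm1 is known as the Gq-coupled muscarinic receptor of pyramidal cells, Chrm2 as a Gi-coupled muscarinic receptor of certain interneurons and axon terminals, and Htr3a as a mark of a class of interneurons.

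Of 6000 barcodes, 1000 per mouse, 1632 had more than 500 and at most 8000 detected genes and at most 40% mitochondrial UMIs and were retained, 684 from placebo and 948 from EPO mice. Placebo mouse 3 gave 90 cells with 267231 UMIs and EPO mouse 4 gave 405 cells with 2150763 UMIs, and the other mice lay between. Of the retained cells, 41 barcodes occurred both in placebo mouse 1 and in EPO mouse 4. These cells held 48.1% of the UMIs of placebo mouse 1 and 7.16% of those of EPO mouse 4. They held 198 of the 408 receptor UMIs of placebo mouse 1. Each of the 41 pairs was of the same class. In each pair, the cell of EPO mouse 4 had 0.17 to 0.32 times the UMIs of that of placebo mouse 1. The median correlation within pairs was 0.725, against 0.476 with other cells of the class, and all 41 pairs lay above. Whether the cells of these mice are independent was not tested. The edgeR calls, some medians and the overlap between treatments are also given without the shared barcodes. Other values keep them, among them cell shares, family sums, counting ratios, folds and per-mouse ranges. Cells were clustered without the receptor genes and named from marker lists, which gave 844 glutamatergic-like, 82 GABAergic-like and 706 non-neuronal cells. Each class had its own markers among its 10 leading genes, except that 1 glutamatergic-like cluster of 214 cells, led by Cpne7 and Grin2a, had none there. Microglia-like cells were not found in placebo mouse 5. Exact (Clopper-Pearson) 95% intervals, and limits of a count of 0 (taken as 3 counts), cover counting error over cells, not the spread between mice. A fold given for a class with 0 UMIs sets that 0 to 3 UMIs. It takes the other class as observed, without its counting error, and is not a 95% limit.

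The receptors were sparse transcripts. They gave 3010 UMIs in the retained cells, which is 382 CPM (counts-per-million, relative to all UMIs of the same cells). Of the 42 genes, 17 had at least 50 UMIs, 16 had 5 to 49 and 9 had fewer than 5. The 17 were Chrm1 with 680 UMIs, Adrb1 with 250, Htr1b with 220, Htr1a with 210, Htr2c with 147, Htr5b with 131, Adra2c with 130, Hrh3 with 128, Chrm2 with 119, Htr1f with 115, Chrna4 with 94, Adra1a with 90, Chrnb2 with 87, Htr4 with 76, Adra2a with 70, Drd5 with 63 and Chrm3 with 55. These counts come from transcript ends and were not divided by length, so their order is not an order of receptor levels. At least 1 receptor UMI was seen in 608 of 844 glutamatergic-like cells, or 72.0% (95% interval 68.9 to 75.0%), in 67.1% of GABAergic-like and in 17.7% of non-neuronal cells. With each cell thinned to 1000 UMIs these shares were 35.22, 37.04 and 12.01%. Oligodendrocyte-like cells were deeper than glutamatergic-like cells, with a median of 4433 against 3688 UMIs, and 14.4% of them had a receptor UMI.

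**Figure D1:**
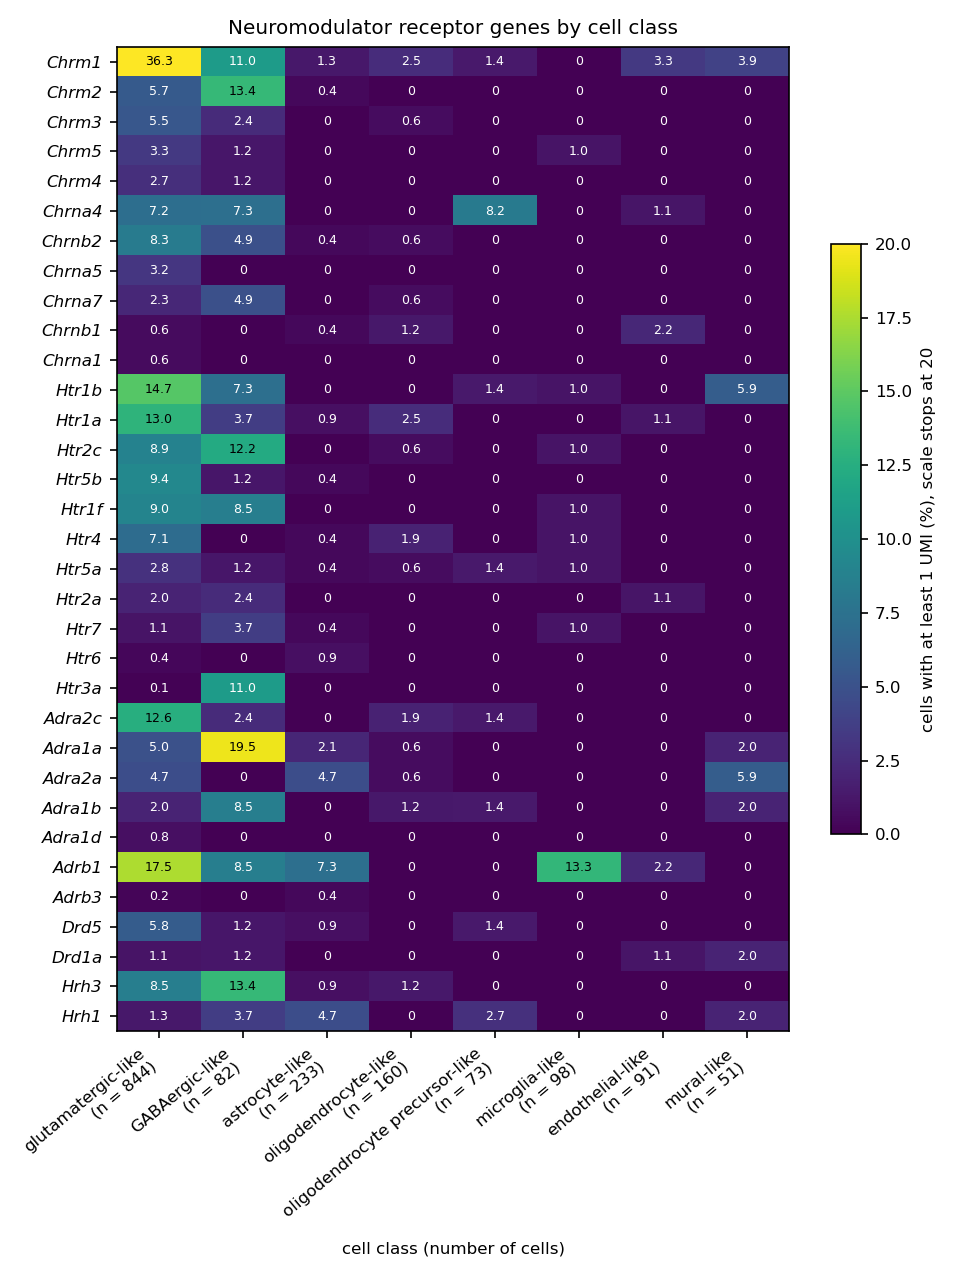
Share of cells with at least 1 UMI of each receptor gene with at least 5 UMIs (rows), in percent (color, which stops at 20, and printed value), by cell class (columns, with the number of cells). Chrm1 reached 36.3% of glutamatergic-like cells and Adra1a 19.5% of GABAergic-like cells, while Adrb1 was seen in 13.3% of microglia-like cells.

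By family, in CPM summed over the cells of a class, the 5 muscarinic genes gave 156 in glutamatergic-like, 139 in GABAergic-like and 8.17 in non-neuronal cells. The 11 G protein-coupled serotonin receptors gave 160, 159 and 24.0, the last falling to 13.6 without placebo mouse 5. The 11 nicotinic subunits were at 41.4, 49.6 and 8.17, and the 5 alpha adrenergic receptors at 49.3, 91.8 and 18.2. The serotonin-gated channel genes Htr3a and Htr3b gave 0.371 CPM in glutamatergic-like and 49.6 in GABAergic-like cells, and none of 706 non-neuronal cells had a UMI. The 3 histamine receptors gave 22.4, 47.1 and 9.13, and the dopamine receptors Drd1a and Drd5 gave 13.2, 4.96 and 2.402.

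The first comparison asked which receptors were carried by neurons rather than by glia and vessel cells, within each of the 6 mice. Of 42 receptors, 15 had enough UMIs to be tested, and 13 were higher in neuronal cells while none was lower (edgeR quasi-likelihood test with mouse as a block, Benjamini-Hochberg over all genes, 5%). Among all 10960 genes tested, 29.4% were higher and 28.5% lower. The filter passes a receptor through the class where it is high, so the count describes those 15 genes. Their median log2 difference was 3.34, against 0.04 over all genes, and without a filter it was 1.84 over all 42 receptors, against 0.17 over all genes. Without the shared barcodes in both mice, 11 were tested and 9 were higher. Htr1f, Hrh3 and Htr4 then no longer reached the filter, and for Adra1a the adjusted p was 0.0671. Neuronal cells were deeper, with a median of 3618 UMIs against 1840, and had 12.96% against 10.41% mitochondrial UMIs. The part of these in the differences was not tested.

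Chrm1 (chr19:8663789-8683587, plus strand, mm10) was between 100 and 162 CPM in the neuronal cells of the 6 mice, with a median of 121, and between 0 and 17.1 CPM in the non-neuronal cells. The ranges did not overlap, and the log2 difference was 4.03 (SE 0.33, adjusted p = 6.41e-12). Chrm2, the Gi-coupled muscarinic receptor (chr6:36388084-36528414, plus strand), lay between 8.98 and 34.4 CPM in neurons, and its non-neuronal sum was 1 UMI. Its 118 neuronal UMIs made a 42.4-fold ratio with a counting interval of 7.46 to 1690 (edgeR adjusted p = 1.99e-06). Both muscarinic receptors were thus higher in the neurons of every mouse.

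Among serotonin receptors, the Gi-coupled Htr1f (chr16:64924729-65105854, minus strand) had a neuronal median of 20.4 CPM and 1 non-neuronal UMI, and the Gq-coupled Htr2c a median of 22.4 CPM and 2 non-neuronal UMIs. Their ratios were 41.0 (7.20 to 1630) and 26.0 (7.08 to 217), with adjusted p of 1.05e-06 and 1.03e-06. The Gi-coupled Htr1b and Htr1a were also seen outside neurons. Htr1b ranged from 29.4 to 62.9 CPM in neurons and from 0 to 12.5 outside them (log2 difference 3.34, SE 0.49, adjusted p = 8.12e-07). Htr1a ranged from 19.1 to 44.9 and from 0 to 8.36 (3.16, SE 0.47, adjusted p = 9.31e-07). Htr4, coupled to Gs, differed by 2.34 (SE 0.63, adjusted p = 0.00196).

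The other receptors that were higher in neurons were the nicotinic subunits Chrnb2 and Chrna4, the autoreceptor-type Adra2c and Hrh3, and the adrenergic Adra1a and Adrb1. Chrnb2 had 85 neuronal and 2 non-neuronal UMIs, a ratio of 15.3 (4.10 to 128, edgeR adjusted p = 7.51e-05). Chrna4 differed by 1.83 (SE 0.53, adjusted p = 0.00360), Adra2c by 3.34 (SE 0.59, adjusted p = 1.35e-05) and Hrh3 by 3.34 (SE 0.62, adjusted p = 2.69e-05). Adrb1, coupled to Gs, showed the smallest called difference, 0.94 (SE 0.28, adjusted p = 0.00543). Its lowest neuronal value of 27.0 CPM and its highest non-neuronal value of 25.7 CPM did not overlap. For Adra1a the difference was 1.35 (SE 0.51, adjusted p = 0.0234), a call lost in DESeq2 (adjusted p = 0.0615), without EPO mouse 2 (0.0795) or EPO mouse 4 (0.106), and with the study's filter of over 1000 genes (0.125).

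Adra2a and Htr5b did not pass. Adra2a, a Gi-coupled receptor, differed by -0.18 (adjusted p = 0.804), and it was seen in 4.72% of astrocyte-like and 4.74% of glutamatergic-like cells. Htr5b differed by 1.27 (adjusted p = 0.0972). A single astrocyte-like cell of placebo mouse 5, with 29026 UMIs, held all 18 non-neuronal UMIs of Htr5b, of 131 in all, and 3 of the 5 Adrb3 UMIs. Without placebo mouse 5, Htr5b passed (edgeR adjusted p = 1.30e-07), as it did with DESeq2 (0.0108) and without a filter (0.00297). That cell had 31 UMIs of Aqp4, 0 of Slc17a7 and 0 of Snap25 and was not called a doublet. Among receptors too rare for the test and with 0 non-neuronal UMIs were Chrm4, Chrna5 and Htr3a. With the 0 set to a floor of 3 UMIs over all non-neuronal cells, they were 3.11-fold, 3.47-fold and 2.51-fold higher in neurons.

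**Figure D2:**
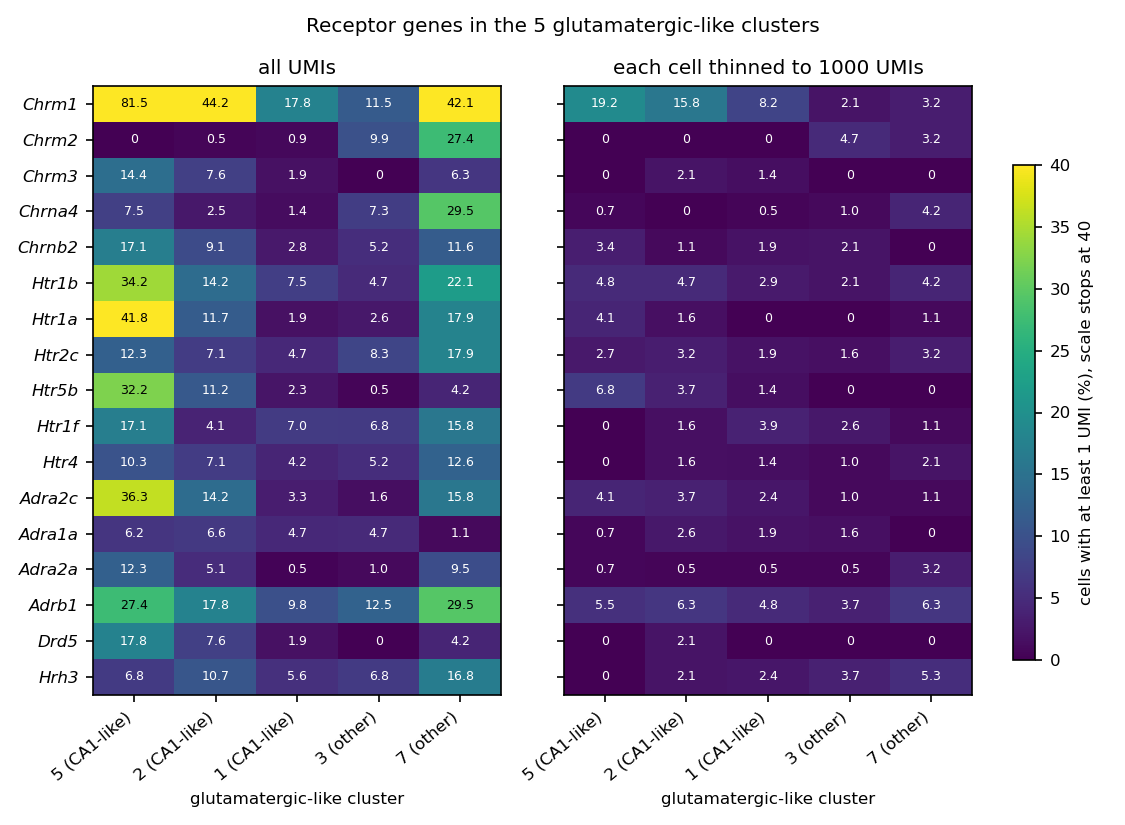
Share of cells with at least 1 UMI of receptor genes, in percent (color, which stops at 40, and printed value), in the 5 glutamatergic-like clusters (columns), with all UMIs (left) and with each cell thinned to 1000 UMIs (right). With all UMIs, Chrm1 and Htr5b were seen most often in cluster 5, and Chrm2 was near 0 in clusters 1, 2 and 5 and reached 27.4% in cluster 7.

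The glutamatergic-like cells fell into 5 clusters. Clusters 1, 2 and 5 had CA1 pyramidal cell markers as their highest subtype list and are called CA1-pyramidal-like here (557 cells). Cluster 5, led by Spink8, Hpca and Calb1, had a median of 12020 UMIs per cell and 3.88% mitochondrial UMIs, and cluster 2, led by Fibcd1, had 4090 UMIs. Cluster 1 had 2120 UMIs and 19.2% mitochondrial UMIs. The other 287 cells were cluster 3, led by Rxfp1, Tshz2 and Tshz3, with 2644 UMIs, and the subiculum-like cluster 7, led by Slc17a6 and Nts, with 8424 UMIs. The number of different receptors seen in a cell followed this order of depth. Cells of cluster 5 had a median of 4 receptors and up to 14, and 80.1% had at least 3. Cells of cluster 7 had a median of 3, and cells of clusters 1 and 3 a median of 1.

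CA1-pyramidal-like cells were compared with the other glutamatergic-like cells within each of the 6 mice. Htr5b, Drd5, Chrm3, Adra2c, Chrm1 and Htr1a were higher in CA1-pyramidal-like cells and Chrm2 and Chrna4 lower, 6 and 2 of 17 receptors tested. Of all 9660 genes tested, 7.41% were higher and 6.84% lower. The median log2 difference was 0.40 over the 17 receptors and 0.01 over all genes, but it was 0.03 over 39 receptors without a filter and -0.07 over 13 receptors without the shared barcodes in both mice. Both sides had similar median depth, 3749 and 3535 UMIs, but 9.91% against 16.4% mitochondrial UMIs, whose part was not tested. Sums weigh deep cells more. Cluster 5 held 1113 of the 1824 receptor UMIs of CA1-pyramidal-like cells, and cluster 7 held 532 of the 770 of the others. The part of depth within each side was not tested. Without the shared barcodes in both mice, 4 of 13 receptors were higher and 2 lower, because Drd5 and Chrm3 no longer reached the filter.

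Chrm2 showed the opposite distribution to Chrm1. Chrm2 had 3 UMIs in CA1-pyramidal-like cells and 76 in the others, a 48.2-fold ratio with a counting interval of 15.9 to 239. It lay between 0 and 2.48 CPM in the CA1-pyramidal-like cells of the 6 mice and between 21.9 and 73.3 CPM in the other cells (log2 difference -5.30, SE 0.55, adjusted p = 5.31e-20). The 2 ranges did not overlap. Chrm1 was at 136 to 220 CPM in CA1-pyramidal-like cells and 31.9 to 73.3 in the others (1.37, SE 0.20, adjusted p = 9.57e-10), again without overlap. By cluster, Chrm1 was seen in 81.5% of cells of cluster 5, 44.2% of cluster 2, 17.8% of cluster 1, 11.5% of cluster 3 and 42.1% of cluster 7. Thinned to 1000 UMIs per cell, these shares were 19.2, 15.8, 8.2, 2.1 and 3.2%. Chrm2 was seen in 27.4% of cells of cluster 7 and 9.9% of cluster 3, and thinned in 3.2 and 4.7%. Chrm3, a Gq-coupled muscarinic receptor, was higher in CA1-pyramidal-like cells by 1.76 (SE 0.60, adjusted p = 0.0290), higher in 5 mice and equal in 1. That call was lost without EPO mouse 2 (adjusted p = 0.171), placebo mouse 1 (0.0981) or placebo mouse 5 (0.093), in DESeq2 (0.147) and with over 1000 genes (0.0547).

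Htr5b, a serotonin receptor that has lost its function in humans (chr1:121509842-121528465, minus strand), had 106 UMIs in CA1-pyramidal-like and 5 in the other glutamatergic-like cells. It lay between 26.4 and 38.8 CPM in the former and between 0 and 7.504 in the latter, and it was higher in 6 of 6 mice (log2 difference 3.38, SE 0.52, adjusted p = 4.82e-09). It was seen in 32.2% of cells of cluster 5 and 0.5% of cluster 3. Htr1a (chr13:105443639-105448122, plus strand) was at 26.3 to 64.6 against 0 to 38.4 CPM, ranges that overlapped although it was higher in each mouse (1.00, SE 0.31, adjusted p = 0.0119). Its call was lost in DESeq2 (adjusted p = 0.0553) and without EPO mouse 2 (0.148). The Gq-coupled Htr2a had 19 UMIs in CA1-pyramidal-like and 0 in the other cells. With that 0 set to a floor of 3 UMIs, it was 3.33-fold higher in CA1-pyramidal-like cells.

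Drd5, the Gs-coupled dopamine receptor (chr5:38319367-38322518, plus strand), had a median of 14.7 CPM in CA1-pyramidal-like cells and of 0 in the others. It was higher in 5 mice and equal in 1, with a log2 difference of 2.70 (SE 0.66, adjusted p = 0.000662). Adra2c (chr5:35278319-35281763, plus strand), which acts through Gi, was at 19.9 to 77.5 against 3.51 to 31.9 CPM and was higher in 6 of 6 mice (1.38, SE 0.39, adjusted p = 0.00498). Chrna4 (chr2:181018380-181043546, minus strand), the subunit that pairs with Chrnb2 in the high-affinity nicotinic receptor, was at 4.40 to 12.9 CPM in CA1-pyramidal-like cells and at 0 to 37.5, with a median of 33.3, in the others (-2.34, SE 0.41, adjusted p = 5.05e-07). It was lower in 5 of 6 mice, and the exception was placebo mouse 3 with 10 other glutamatergic-like cells. Its partner Chrnb2 did not pass, with a log2 difference of 0.27. The Gq-coupled Hrh1 had 12 UMIs in the other cells and 0 in CA1-pyramidal-like cells, 7.62-fold lower with the 0 set to a floor of 3 UMIs. Adrb1 gave 0.03 (SE 0.28) and Htr4 0.02, and Hrh3, Adra1a, Adra2a, Htr1b, Htr1f and Htr2c did not pass either, with log2 differences between -0.70 (Hrh3) and 0.98 (Adra1a).

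**Figure D3:**
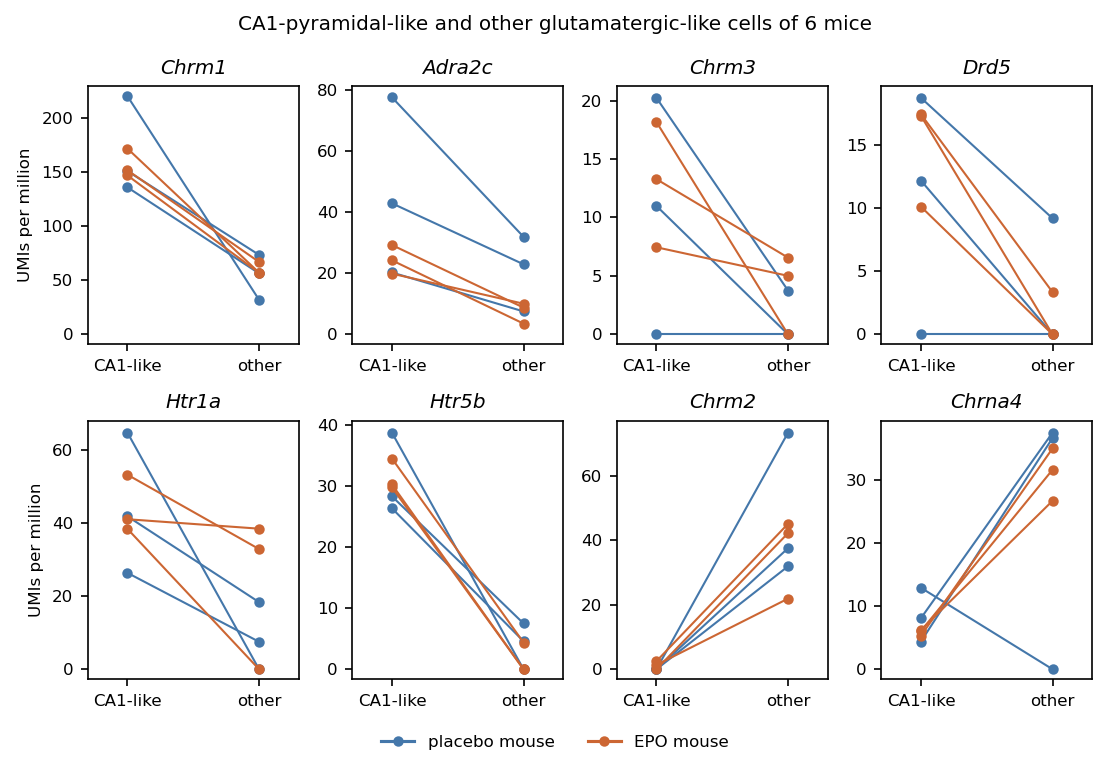
CPM of receptor genes in CA1-pyramidal-like and other glutamatergic-like cells of each mouse (points, joined by mouse; vertical axis in CPM). Chrm1 and Htr5b lay higher in the CA1-pyramidal-like cells of all 6 mice, and Chrm2 lay lower in all 6.

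The 250 bases before the start of 4 of the 8 receptors that differed are shown, because they are the ones among the 8 with a GC box in the RefSeq promoter table (GRCm38.p6). The start is that of RefSeq, which for Chrna4, Drd5 and Htr1a differs from the outermost start of the GENCODE positions given above. The capitals mark the GC box, GGGCGG or its complement on the other strand, each sequence reading 5′ to 3′ on the strand of its gene.
Chrm2 promoter, chr6:36387834-36388083, plus strand: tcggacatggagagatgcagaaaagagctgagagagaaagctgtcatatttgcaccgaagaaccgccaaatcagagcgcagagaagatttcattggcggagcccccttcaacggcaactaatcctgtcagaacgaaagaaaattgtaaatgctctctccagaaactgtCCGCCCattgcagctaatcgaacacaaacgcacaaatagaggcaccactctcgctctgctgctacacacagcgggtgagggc
Chrna4 promoter, chr2:181039178-181039427, minus strand: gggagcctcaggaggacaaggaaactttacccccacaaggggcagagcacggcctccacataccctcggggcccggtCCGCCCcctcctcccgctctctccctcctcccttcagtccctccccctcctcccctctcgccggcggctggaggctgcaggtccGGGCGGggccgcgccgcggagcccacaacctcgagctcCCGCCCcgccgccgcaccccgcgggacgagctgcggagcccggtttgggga
Drd5 promoter, chr5:38319259-38319508, plus strand: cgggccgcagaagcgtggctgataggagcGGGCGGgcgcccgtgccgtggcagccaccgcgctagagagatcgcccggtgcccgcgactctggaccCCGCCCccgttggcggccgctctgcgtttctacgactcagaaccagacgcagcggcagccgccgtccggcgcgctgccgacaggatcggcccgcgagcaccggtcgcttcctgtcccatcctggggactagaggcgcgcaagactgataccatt
Htr1a promoter, chr13:105443443-105443692, plus strand: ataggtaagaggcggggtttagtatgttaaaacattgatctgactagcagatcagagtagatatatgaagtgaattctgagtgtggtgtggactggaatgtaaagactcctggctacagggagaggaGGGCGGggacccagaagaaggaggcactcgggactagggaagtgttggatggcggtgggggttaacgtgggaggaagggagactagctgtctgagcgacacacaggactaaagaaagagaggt
Chrna4, lower in CA1-pyramidal-like cells, had 3 GC boxes and 74.4% G and C in this window, and Chrm2, also lower, had 1 and 50%. Drd5 and Htr1a, both higher, had 2 and 1. As these receptors were chosen for the box, its presence on both sides of the comparison follows from the choice. Adra2c and Chrm3, both higher and also in the table, had 0 GC boxes. Of the 42 receptors, 32 were in the table, Drd1a under the name Drd1, and 18 of these had a GC box, with 20 of their 40 windows against 32.7% of all 32851 windows of this length. The STAT motif TTCNNNGAA, searched on both strands, was found before Chrna5 and in 7.02% of all windows. The right part of the element bound by the neuronal repressor REST was found before Hrh3 and Htr5a and in 0.0974% of all windows, and the left part before no receptor and in 0.301% of all windows. Among those not matched were Adra1a, Adra1d, Adrb3, Chrm1, Chrna2, Chrnb3, Htr3a, Htr4 and Htr5b. A match describes letters in the window, not a bound site.

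GABAergic-like cells, the interneurons, were compared with glutamatergic-like cells in 5 mice, since placebo mouse 3 had 1 GABAergic-like cell. Placebo mice 1 and 5 had 7 and 23 such cells, and EPO mice 2, 4 and 6 had 10, 23 and 18. In these cells 1 UMI made 41.9 CPM in placebo mouse 1 and 8.64 in placebo mouse 5. In EPO mice 2, 4 and 6 it made 28.01, 5.98 and 17.25 CPM. Per-mouse values below that are near 1 or 2 times these rest on 1 or 2 UMIs. Adra1a, Chrm2 and Adra1b were higher in GABAergic-like cells and Chrm1 and Htr4 lower, 3 and 2 of 16 receptors tested. Of all 9516 genes, 3.92% were higher and 7.32% lower. The median log2 difference was -0.31 over the 16 receptors and -0.22 over all genes. The receptors' median turned to 0.32 without EPO mouse 6, 0.28 with a minimum count of 10 and 0.03 without the shared barcodes in both mice. GABAergic-like cells had fewer UMIs (median 2610 against 3688) and more mitochondrial UMIs (19.2 against 12.3%), whose part was not tested. Without the shared barcodes in both mice, Adra1a, Chrm2 and Chrm1 passed.

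Adra1a, a Gq-coupled adrenergic receptor (chr14:66635251-66771168, plus strand), was at 83.8 and 43.2 CPM in the GABAergic-like cells of placebo mice 1 and 5 and at 168, 59.8 and 51.8 CPM in those of EPO mice 2, 4 and 6. In glutamatergic-like cells of the same mice it was at 18.4, 8.0, 7.7, 11.4 and 4.1 CPM. On 26 GABAergic-like UMIs, it was higher in 5 of 5 mice without overlap, by 2.84 on the log2 scale (SE 0.52, adjusted p = 2.14e-06). It was seen in 19.5% of GABAergic-like cells (11.6 to 29.7%) and 4.98% of glutamatergic-like cells. Of the 16 GABAergic-like cells with Adra1a, 10 also had the neuropeptide gene Npy, which was seen in 23 of the 82 cells. Lamp5 was seen in 7 of the 16 and 15 of the 82, Reln in 9 and 26, and Cnr1 in 10 and 42. Adarb2 was seen in 9 and 37, Cck in 5 and 27, and Lhx6 in 3 and 11. Sst, Vip and Pvalb, in 14, 17 and 10 of the 82, were each seen in 1 of the 16.

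Chrm2 was at 41.9 and 8.6 CPM in the GABAergic-like cells of placebo mice 1 and 5 and at 56.0, 149 and 173 CPM in those of EPO mice 2, 4 and 6. Its glutamatergic-like values lay between 9.1 and 20.6 CPM. It was higher in 4 of 5 mice (2.48, SE 0.47, adjusted p = 5.47e-06), and 12 of its 39 GABAergic-like UMIs came from 1 cell of EPO mouse 4. Of the 11 GABAergic-like cells with Chrm2, 7 had Cck, seen in 27 of the 82 cells, 5 had Pvalb, seen in 10, and 3 each had Sst, seen in 14, and Lhx6, seen in 11. Of these 11 cells, 7 had more UMIs of the list for interneurons of medial ganglionic eminence origin than of the caudal list, as did 23 of all 82. Those 7 cells held 16 Chrm2 UMIs, and the 4 cells with more of the caudal list held 23. The difference between these lists was within 1 UMI for 13 cells.

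Chrm1 showed the reverse, at 0 and 8.6 CPM in GABAergic-like cells of placebo mice 1 and 5 and at 56.0, 35.9 and 51.8 in those of the EPO mice, against 108 to 136 CPM in glutamatergic-like cells. With 12 GABAergic-like UMIs, it was lower in 5 of 5 mice (log2 difference -1.997, SE 0.48, adjusted p = 0.000718). The family sums of the muscarinic receptors, 139 and 156 CPM, thus joined a member that was higher and a member that was lower. Htr4 had no UMI in 82 GABAergic-like cells (a limit of 3 counts is 3.66% of cells with a UMI, not of cells that express the gene), against 70 UMIs in glutamatergic-like cells. It was 1.77-fold lower with the 0 set to a floor of 3 UMIs over the GABAergic-like cells (edgeR adjusted p = 0.0460). The call was lost with over 1000 genes (0.224) and without any 1 of the 5 mice (0.0777 to 0.23). DESeq2 gave no adjusted p.

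Adra1b, also Gq-coupled, was at 168 CPM in placebo mouse 1, 8.6 in placebo mouse 5 and 0, 17.9 and 17.2 in EPO mice 2, 4 and 6. Its 9 GABAergic-like UMIs gave a log2 difference of 2.03 (SE 0.72, adjusted p = 0.0440), which rested on placebo mouse 1. Without that mouse it was 1.02 (adjusted p = 0.597), and the call was also lost without EPO mouse 2 (0.0571), 4 (0.0526) or 6 (0.0692), or placebo mouse 5 (0.081). Among receptors that did not pass, the log2 difference was 1.08 for Htr2c (adjusted p = 0.161), 0.89 for Hrh3 (0.348) and -2.14 for Adra2c (0.134), which had 2 GABAergic-like UMIs. Adra2a had no UMI in GABAergic-like cells, 1.31-fold lower with the floor set in the same way, and was not tested.

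Htr3a (chr9:48899213-48911099, minus strand) did not reach the filter, with 20 UMIs in GABAergic-like and 1 in glutamatergic-like cells. This is a ratio of 264 with a counting interval of 42.2 to 10900. The interval takes each UMI as independent, and 6 of the UMIs came from 1 GABAergic-like cell of EPO mouse 4. It was at 41.9 and 51.8 CPM in the GABAergic-like cells of placebo mice 1 and 5 and at 168, 41.8 and 0 CPM in those of EPO mice 2, 4 and 6. All 9 GABAergic-like cells with Htr3a had more UMIs of the caudal than of the medial ganglionic eminence list, as did 54 of all 82. All 9 had a UMI of the cannabinoid receptor gene Cnr1, seen in 42 of the 82, and 5 had Vip and 7 had Adarb2. These genes are on the caudal list, so they repeat part of the count just given. Reln, also on that list, was seen in 1 of the 9, against 26 of the 82. The 10 cells with Htr2c also all had Cnr1, and 9 had Adarb2, seen in 37 of the 82. Only 1 of the 10 had Vip, seen in 17 of the 82. These counts are descriptions of single cells in which a gene can be missed.

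**Figure D4:**
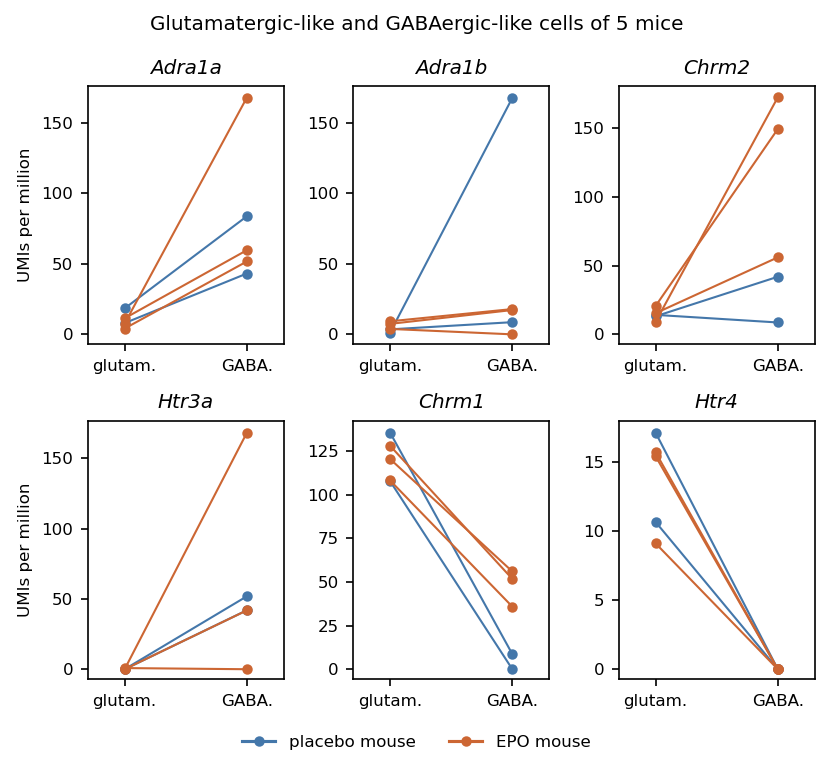
CPM of receptor genes in GABAergic-like and glutamatergic-like cells of 5 mice (points, joined by mouse; vertical axis in CPM). Adra1a lay higher in GABAergic-like cells of all 5 mice, and Chrm1 lay lower in all 5.

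Adrb1 had more UMIs in non-neuronal cells than any other receptor. It was seen in 13 of 98 microglia-like cells, or 13.3% (7.26 to 21.6%), at 116 CPM and in each of the 5 mice that had such cells. Thinned to 1000 UMIs per cell, the share was 14.1% against 5.19% in glutamatergic-like cells. It was also seen in 7.30% of astrocyte-like cells, at 37.4 CPM, and in 0 of 160 oligodendrocyte-like cells, although the latter were deeper (median 4433 UMIs against 1216 in microglia-like and 1723 in astrocyte-like cells). Hrh1 had 12 of its 30 UMIs in 11 astrocyte-like cells of 5 mice, or 4.72%, and none in 557 CA1-pyramidal-like cells. At 23.6 CPM this compares with 3.81 CPM over all retained cells. Adra2a had 13 UMIs in 11 astrocyte-like cells, at 25.6 CPM. Chrna4 was seen in 6 of 73 oligodendrocyte precursor-like cells of 4 mice, or 8.22% (3.08 to 17.04%), at 34.0 CPM, and in no oligodendrocyte-like cell. Mural-like cells had 5 UMIs of Htr1b in 3 of 51 cells, at 55.7 CPM. In the barcodes left out for 500 or fewer genes, Adrb1 was at 16.3, Htr1b at 19.1, Chrna4 at 8.51, Hrh1 at 5.67 and Adra2a at 4.25 CPM, below the glial values given for them. No test between glial classes was made.

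Several receptors with 5 to 49 UMIs were seen mostly in glutamatergic-like cells. The muscarinic Chrm5, with 35 UMIs, and Chrm4, with 26, were in 3.32 and 2.73% of these cells. The nicotinic subunit Chrna5, with 29 UMIs, was in 3.20% of them and in no other class, and Chrna7, with 24, in 2.25%, with 18 UMIs in CA1-pyramidal-like, 1 in other glutamatergic-like, 4 in GABAergic-like and 1 in non-neuronal cells. Htr5a had 33 UMIs and Htr2a 22. The Gs-coupled Htr7 and the dopamine receptor Drd1a had 15 UMIs each. Drd1a had 10 UMIs in the other glutamatergic-like and 2 in CA1-pyramidal-like cells, lower in the latter in 5 mice and equal in 1. Htr7 had 8 against 2 UMIs, but it was lower in CA1-pyramidal-like cells in 2 mice only, higher in 1 and equal in 3. Adra1b had 43 UMIs, Hrh1 30, Htr3a 21, the muscle-type subunits Chrnb1 and Chrna1 10 and 6, Adra1d 8, Adrb3 5 and Htr6 5. Those below 5 UMIs included Chrnb3 and Htr2b with 4 each, Chrna3 and Chrnb4 with 2 each, and Chrna2, Chrna9, Hrh2 and Htr3b with 1 each. At this depth, expression of these genes in a class could not be told from its absence.

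The remaining question was whether EPO changed any receptor within 6 h. Over all retained cells, 0 of 26 receptors tested passed, and 0% of the 13072 genes tested did (edgeR; 205 genes and 1 receptor had an unadjusted p under 0.05, and DESeq2 called 1 gene and no receptor). The median log2 difference was 0.17 over the receptors and 0.01 over all genes. In a sum over all cells, fewer cells of a type and less RNA per cell cannot be told apart. Neuronal cells were 131 of 275, 28 of 90 and 218 of 319 in placebo mice 1, 3 and 5. They were 149 of 253, 230 of 405 and 170 of 290 in EPO mice 2, 4 and 6. The part of this in the differences over all cells was not tested. Within glutamatergic-like cells, 0 of 24 receptors and 0% of 11239 genes passed (214 genes and 1 receptor with an unadjusted p under 0.05, and no gene in DESeq2), with a median of 0.09 against 0.01. Without the shared barcodes in both mice, no receptor and no gene passed either, and the receptors' median within glutamatergic-like cells turned to -0.03, against 0.02 over all genes. With the D label as a term, no receptor and no gene passed in either comparison.

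Over all retained cells, the plainest differences were in Htr1f and Chrnb2. Htr1f was at 11.6, 7.48 and 6.74 CPM in placebo mice 1, 3 and 5 and at 20.5, 16.7 and 18.6 CPM in EPO mice 2, 4 and 6. These were 15, 2 and 10 UMIs with placebo and 23, 36 and 29 UMIs with EPO. The 2 UMIs of placebo mouse 3 lie under the floor of 3 UMIs used here. The mean was 8.62 ± 2.64 CPM (SD, n = 3) with placebo and 18.6 ± 1.86 CPM (SD, n = 3) with EPO, and the groups did not overlap. The difference was 10.9 CPM among the mice labelled D1 and 10.9 among those labelled D2. The log2 difference was 1.02 (SE 0.39, edgeR unadjusted p = 0.0239, adjusted p = 1.00). The exact permutation test of 3 against 3 mice gave p = 0.1, the smallest it can give. Within glutamatergic-like cells, Htr1f was at 18.4, 18.4 and 6.21 CPM against 28.2, 21.4 and 21.5 CPM, again without overlap. Placebo mouse 3 had 27 such cells, and its value there rests on no more than its 2 UMIs.

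Chrnb2 (chr3:89746195-89764632, minus strand) was at 6.21, 7.48 and 8.09 CPM in placebo and 11.6, 13.5 and 14.7 CPM in EPO mice, a mean of 7.26 ± 0.96 against 13.3 ± 1.60 (SD, n = 3 each) with a log2 difference of 0.85 (SE 0.41, edgeR adjusted p = 1.00). Chrm2 was at 9.31, 3.74 and 11.5 CPM against 12.5, 25.1 and 13.5 CPM. Placebo mouse 3 had 2 UMIs of Chrnb2 and 1 of Chrm2, under the floor of 3 UMIs. Over all retained cells, Htr1f, Chrnb2 and Chrm2 did not overlap between treatments. They were 3 of the 17 receptors with at least 50 UMIs, against 6.37% of all 10738 genes with that many UMIs. Without the shared barcodes in both mice Chrm2 overlapped, which left 2 of 17. Chrnb2 overlaps Adar on the opposite strand, and whether the counting used the strand is not given in the sources used here.

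Within glutamatergic-like cells, Adrb1, Htr1b and Htr1f did not overlap, 3 of 17 against 6.54% of all genes. Chrnb2 overlapped there, at 9.20, 18.4 and 8.865 CPM with placebo against 15.4, 18.5 and 18.2 CPM with EPO. The 18.4 CPM of placebo mouse 3 rests on no more than 2 UMIs. Chrm2 overlapped too, at 13.15, 9.20 and 14.2 CPM against 15.4, 20.65 and 9.09 CPM. Htr1b was lower with EPO, at 40.8, 64.4 and 47.0 CPM against 30.8, 31.3 and 37.2 CPM (log2 difference -0.54, SE 0.29, edgeR adjusted p = 1.00). Adrb1 was at 36.8, 27.6 and 36.3 CPM against 41.0, 37.7 and 38.0 CPM, and overlapped without the shared barcodes. Adra2c had the lowest unadjusted p, 0.0334, with a log2 difference of -0.88 (SE 0.38, edgeR adjusted p = 1.00) and overlapping groups. Chrm1, the receptor with the most UMIs, was at 67.5, 74.8 and 104 CPM over all cells of the placebo mice and at 85.4, 74.4 and 104 CPM of the EPO mice, a log2 difference of 0.07 (SE 0.25).

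**Figure D5:**
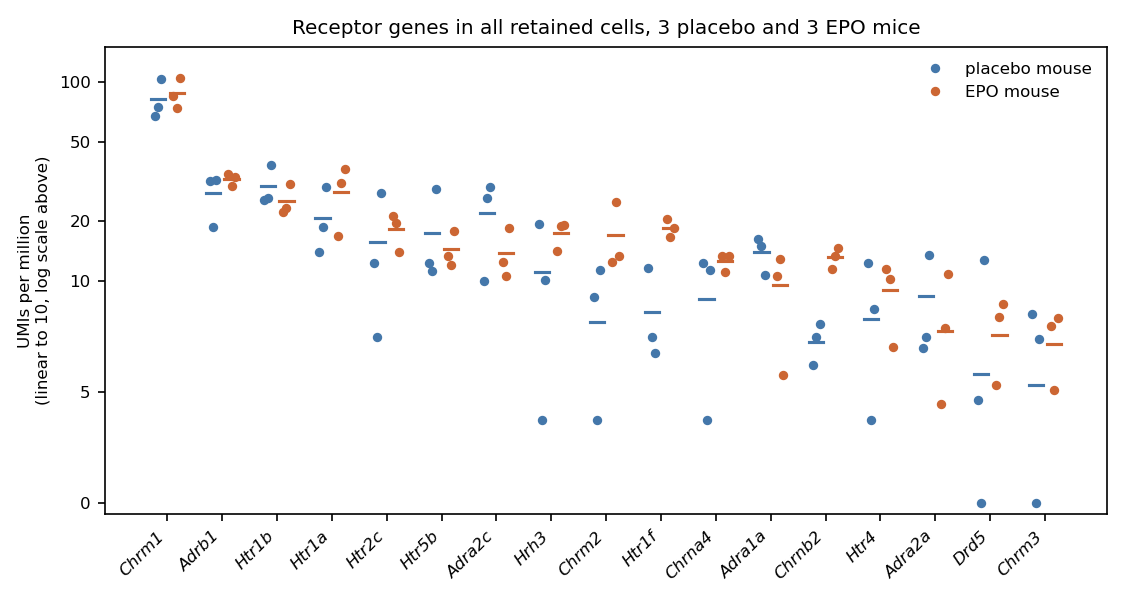
CPM over all retained cells of receptor genes in placebo mice 1, 3 and 5 and EPO mice 2, 4 and 6 (points; bars are group means; the vertical axis, in CPM, is linear to 10 and logarithmic above). Htr1f, Chrnb2 and Chrm2 lay higher in the 3 EPO mice than in the 3 placebo mice, and the other genes overlapped. Placebo mouse 3 had 2, 2 and 1 UMIs of these receptors.

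The genes that act with these receptors were read from lists. Of 36 G proteins and effectors, 34 were tested between neuronal and non-neuronal cells, and 26 were higher and 4 lower in neuronal cells, against 29.4% and 28.5% of all genes. The calmodulin-dependent phosphodiesterase Pde1a was higher by 4.25 on the log2 scale (SE 0.25, adjusted p = 2.60e-15), and the G protein subunit Gnai2 was lower, at -2.92 (SE 0.16, adjusted p = 5.67e-16). In CA1-pyramidal-like against other glutamatergic-like cells, 10 of 34 were higher and 6 lower, against 7.41% and 6.84% of all genes. Gnaq, the Gq subunit used by Chrm1 and Chrm3, was higher by 0.95 (SE 0.16, adjusted p = 1.15e-07), the signaling regulator Rgs14 by 1.68 (SE 0.31, adjusted p = 1.99e-06) and the potassium channel Kcnj6 by 1.63 (SE 0.33, adjusted p = 1.56e-05). The phospholipase Plcb4 was lower, at -2.94 (SE 0.25, adjusted p = 5.81e-29). In GABAergic-like against glutamatergic-like cells, 2 of 34 were higher and 11 lower, against 3.92% and 7.32% of all genes. Plcb4 was then higher, at 1.68 (SE 0.36, adjusted p = 0.000114), and Gnaq lower, at -1.40 (SE 0.33, adjusted p = 0.000513).

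Of 10 genes for nicotinic receptor assembly and accessory proteins, 8 were in the table. The shares over all genes just given are the background of the counts that follow. Between neuronal and non-neuronal cells 5 of 7 tested were higher and 2 lower, with Ly6h, which holds back some nicotinic receptors, higher by 3.14 (SE 0.23, adjusted p = 5.86e-13). In CA1-pyramidal-like cells 1 of 6 was higher and 3 lower, among them Lynx1, a brake on nicotinic receptors, at -0.96 (SE 0.20, adjusted p = 2.82e-05). In GABAergic-like cells 3 of 6 were lower and none higher, with Lypd1 at -5.24 (SE 0.66, adjusted p = 3.29e-13). Of 20 genes for transmitter synthesis, transport and breakdown, 6 were tested between neuronal and non-neuronal cells. The acetylcholine-splitting enzyme Ache was higher in neuronal cells by 1.97 (SE 0.62, adjusted p = 0.00734), and 4 were lower, among them the monoamine oxidase Maob at -4.44 (SE 0.45, adjusted p = 5.31e-10). None of 4 passed in either comparison between neuron classes. EPO against placebo gave 0 calls in each list, of 35, 8 and 10 genes tested over all cells.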

How the data were processed

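Drop-seq libraries of dissociated CA1 cells were measured in 6 mice. The values are unnormalized UMI counts by gene and barcode, in a single table deposited by the authors. Per the labels, bcl2fastq 2.15 and STAR 2.4.0 were used with mm10. The counting tool, annotation and choice of barcodes are not given in the sources used here. A gene listed as missing in a mouse was set to 0, and 0 columns were left unused. Kept barcodes had over 500 genes, no more than 8000, and mitochondrial UMIs of up to 40% (267231 to 2150763 UMIs per mouse). The lower bound was chosen since the study's filter of over 1000 genes leaves 973 cells.

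Clustering used Seurat 5.3.0 (R 4.3.3), with the receptor genes left out of the variable genes, and clusters were named from marker lists. Doublets were called by Scrublet and kept. Their share was 16.7% in placebo mouse 3 and up to 1.82% in other mice. Counts summed per mouse, or per mouse and class, were tested with edgeR 4.0.16 (quasi-likelihood, TMM, filterByExpr with a minimum count of 3 and total of 10, Benjamini-Hochberg at 5%), with mouse as a block within mice. The scripts were tested on simulated data. DESeq2 1.42.0, other scaling, filters, clustering, doublet and barcode settings and leaving out each mouse were alternatives. The mouse is the replicate. The members, gene lists and the rule for naming genes (per-mouse values from 50 UMIs or a call) were chosen with earlier results of these data known. Positions are GENCODE vM21 and promoters RefSeq. A further member is not reported here.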

Additional observations from a re-analysis of the deposited data

Results flagged for a closer look

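Of 47 sets of per-mouse differences in CPM, 9 held a mouse far from the others by Dixon's test at 95%. For a single set of normal values of equal spread, chance gives this in about 1 of 20. The 47 sets share the same mice, which differ in counting error, so that rate is not the chance level here. In GABAergic-like minus glutamatergic-like cells, Adra1a was at 160 in EPO mouse 2 against 35.2 to 65.4 in the other mice, and Htr5b at -5.14 in EPO mouse 4 against -23.1 to -19.2. In neuronal minus non-neuronal cells, Chrm2 was at 34.4 in EPO mouse 4 against 8.98 to 17.2, and Htr5b at -55.1 in placebo mouse 5 against 16.6 to 27, the mouse with the astrocyte-like cell that held 18 Htr5b UMIs. In CA1-pyramidal-like minus other glutamatergic-like cells, placebo mouse 3 stood apart for 5 receptors: Adra2c at 45.6 (others 9.86 to 20.7), Chrm1 at 188 (77.2 to 114), Chrna4 at 12.9 (-32.3 to -20.5), Chrnb2 at 25.9 (-3.45 to 6.09) and Htr2c at -63.8 (-11.4 to 1.09). That mouse had 17 CA1-pyramidal-like and 10 other glutamatergic-like cells.

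The 4292 barcodes with 500 or fewer genes, which entered no comparison, held 222 receptor UMIs, or 157 CPM against 382 CPM in the retained cells.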

How the results depend on the processing

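Of 26 receptor differences called between classes, 21 kept their direction and passed in every alternative run in which they were tested. The exceptions, Adra1a between neuronal and non-neuronal cells, Chrm3 and Htr1a in CA1-pyramidal-like cells and Adra1b and Htr4 in GABAergic-like cells, kept their direction and are given above. Of 386 values for single receptors, none reversed in direction and 28 no longer passed. The rest of the 535 values were counts, which have no direction, and 17 of them were marked as moved. Receptors called in GABAergic-like cells numbered 5, and 3 with DESeq2, 2 with a minimum count of 10, 3 with over 1000 genes, 3 without the shared barcodes in both mice and 3 to 4 when each mouse was left out. All genes called there numbered 1070 and 676 to 1005 when each mouse was left out, lowest without placebo mouse 5 (676) and EPO mouse 4 (678). DESeq2 split them into 375 higher and 441 lower, against 373 and 697. Neuronal receptors called numbered 13, 20 without a filter and 4 with a minimum count of 10. Those in CA1-pyramidal-like cells numbered 8, and 5 with that minimum. These filters change how many receptors are tested. For EPO against placebo over all cells, 0 genes became 1 with DESeq2 and 21 without a filter, and within glutamatergic-like cells 12 without a filter and 0 to 9 when each mouse was left out, 9 without placebo mouse 5. The cause was not tested. No receptor was called in these fits. No paired analysis was possible because the treatments share no replicate numbers. The fits with the D label as a term made 0 calls. With 82 GABAergic-like cells, a gene without a UMI there has a limit of 3.66% for cells with a UMI, which does not bound the cells that express it.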
